A study of Mus musculus with 9 samples.

Results

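The genes described here are the 7 that carry the making, packing, uptake and breakdown of GABA (γ-aminobutyric acid) and the chloride transport that sets its electrical effect. They are Gad1, Gad2, Slc32a1, Slc6a11, Abat, Slc12a2 and Slc12a5. They were found by matching these symbols to the Ensembl identifiers of the deposited table, which gave 7 of 48526 genes, and all 7 passed the filter on low values. RNA was sequenced from the mouse medial ganglionic eminence (MGE), a region of the embryonic ventral forebrain that generates cortical interneurons, at embryonic day 14.5 in strain C57BL/6. The 5 knockout libraries carry Nkx2.1-cre, Ctnnb1 fl/fl and Rosa26-YFP. Of the 4 control libraries, replicates 1 to 3 carry Nkx2.1-cre and Rosa26-YFP with no floxed allele, and replicate 4 carries in addition 1 floxed Ctnnb1 allele (Ctnnb1 fl/wt). All 9 libraries therefore carry the Cre recombinase, driven by Nkx2.1 sequence and so active only where that driver works, and the yellow fluorescent reporter. Ctnnb1 encodes β-catenin, which links cadherins to the cytoskeleton and carries the canonical Wnt signal to TCF/LEF factors. Sorting, and the number of embryos behind each library, are not stated by the labels, so p-values reflect only the spread between these libraries, some of which may be technical.

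GABA is made from glutamate by 2 glutamate decarboxylases, GAD67 (Gad1) and GAD65 (Gad2), and is loaded into synaptic vesicles by VGAT (Slc32a1). Plasma membrane transporters such as GAT3 (Slc6a11) take it back up, and GABA transaminase (Abat) starts its breakdown in mitochondria. In immature neurons the importer NKCC1 (Slc12a2) keeps internal chloride high, so that GABA tends to depolarize, and the later rise of the extruder KCC2 (Slc12a5) lowers chloride and makes GABA inhibitory. MGE progenitors give rise to GABAergic neurons, and Gad1 and Gad2 are commonly used to mark them from early stages on.

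Gad1 (chr2:70553072-70602014), Gad2 (chr2:22622205-22693874), Slc32a1 (chr2:158610767-158615748) and Slc12a5 (chr2:164960802-164999731) all lie on chromosome 2, far apart from one another. Slc6a11 (chr6:114131241-114249952) and Abat (chr16:8513429-8621568) lie elsewhere. These, like Slc12a2, are protein-coding genes on the plus strand of mm10 in GENCODE M21. The promoters of Gad1, Gad2 and Slc32a1 are shown because these 3 genes moved almost together in the results below. They are RefSeq windows on GRCm38.p6 from 250 bases before to 50 after the transcription start, on the plus strand (chr2:70561879-70562178 for Gad1, chr2:22622077-22622376 for Gad2 and chr2:158610508-158610807 for Slc32a1). Capitals mark the core of the TCF/LEF motif, CTTTG, or CAAAG where it lies on the other strand.
Gad1: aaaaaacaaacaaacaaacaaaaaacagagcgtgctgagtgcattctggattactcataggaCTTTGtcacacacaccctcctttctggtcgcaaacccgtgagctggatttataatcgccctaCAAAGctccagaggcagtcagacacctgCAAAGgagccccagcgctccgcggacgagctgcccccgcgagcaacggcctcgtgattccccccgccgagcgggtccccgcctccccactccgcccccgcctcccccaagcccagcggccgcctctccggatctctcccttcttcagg
Gad2: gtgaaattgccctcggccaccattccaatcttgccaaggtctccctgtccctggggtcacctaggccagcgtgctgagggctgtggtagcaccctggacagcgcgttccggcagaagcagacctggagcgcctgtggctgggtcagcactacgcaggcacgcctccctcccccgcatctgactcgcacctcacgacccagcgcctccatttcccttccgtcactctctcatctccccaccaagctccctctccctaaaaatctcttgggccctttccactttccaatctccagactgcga
Slc32a1: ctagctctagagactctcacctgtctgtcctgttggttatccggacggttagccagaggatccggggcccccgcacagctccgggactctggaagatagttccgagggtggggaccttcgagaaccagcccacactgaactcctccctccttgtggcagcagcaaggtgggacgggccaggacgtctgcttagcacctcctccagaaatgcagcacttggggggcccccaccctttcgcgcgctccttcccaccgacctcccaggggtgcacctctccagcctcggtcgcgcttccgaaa
The Gad1 window held 3 such cores, and the Gad2 and Slc32a1 windows held 0. The windows matched for Slc6a11 and Slc12a5, not shown, also held 0. The core is short, and 53.9% of the 32851 RefSeq promoter windows held at least 1, while 5.54% held 3 or more. A longer form of the core, CTTTGA or TCAAAG, was in none of the 3 windows shown and in 16.0% of all windows. The homeodomain core TAATTA, which reads the same on both strands, was in none of the 3 windows and in 5.29% of all windows. These letters are a description of the windows and not evidence of binding. The Gad1 window lies inside the GENCODE gene, downstream of its first annotated base, because RefSeq and GENCODE start the gene at different exons. RefSeq windows were matched for 5 of the 7 genes.

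Values are normalized counts, read counts divided by a size factor for each library. Means are given with the standard deviation (SD) over the libraries of a group. A log2 fold change is the knockout mean minus the control mean of log2(normalized count + 1), given with its standard error (SE). Adjusted p-values are from limma over 13780 genes with Benjamini-Hochberg correction, and a gene passed below 0.05. Depth was alike, with 5331170 to 5569444 reads in knockout and 5120585 to 5390156 in control libraries. The targeted gene, Ctnnb1 (chr9:120929216-120960507), averaged 6789 ± 828 in knockout and 9828 ± 197 in control libraries (log2 fold change -0.54, SE 0.0960, limma adjusted p = 0.000811), so transcript of the gene remained. Its counts cover the whole gene, and reads from the deleted exons were not measured apart.

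Control replicate 1 stood apart from the other controls. The 11 markers of the cortical excitatory lineage summed to 316 to 901 in knockout libraries, to 3285 in control replicate 1 and to 189 to 256 in controls 2 to 4. Choroid plexus markers summed to 152 to 722 in knockout libraries, to 2932 in control replicate 1 and to 165 to 361 in controls 2 to 4. This library was also the lowest of the 9 for Gad1, Gad2, Slc32a1 and Abat, so results are given with and without it, and with controls 2 and 3 alone, which leaves out the Ctnnb1 fl/wt library too.

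Cell-class markers moved with the genotype in the same libraries. Of 20 pan-neuronal genes 14 rose and 0 fell, and their sum was 43268 to 58223 in knockout and 25548 to 30831 in control libraries. Of 17 tested genes of postmitotic MGE interneurons 15 rose and 0 fell, with sums of 22691 to 29326 in knockout and 10066 to 17604 in control libraries. Nxph1, a secreted neurexin ligand of interneurons, averaged 637 in knockout and 81.6 in control libraries, and the neuropeptide gene Sst 283 and 8.01. Of 18 ventricular zone progenitor genes 12 fell and 0 rose, with sums of 21089 to 32686 in knockout and 42384 to 48673 in control libraries. Nes, an intermediate filament of neural progenitors, changed by -1.02 on the log2 scale. In bulk tissue, more cells of a type and more RNA per cell cannot be told apart, and the part of these shifts in the values below was not tested.

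In the knockout MGE 5 genes were higher, Slc6a11, Slc32a1, Gad1, Gad2 and Abat, 1 was lower, Slc12a2, and 1 did not pass, Slc12a5. The 7 had a median log2 fold change of 1.17, against -0.01 over all genes tested. Of all genes tested 34.5% passed, 17.2% as higher and 17.3% as lower, so much of the transcriptome moved with the genotype. Each count of listed genes, above and below, is to be read beside these shares. The groups did not overlap for the 5 higher genes. Of all genes tested 29.1% had groups that did not overlap, 14.5% with knockout above control and 14.6% below.

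**Figure D1:**
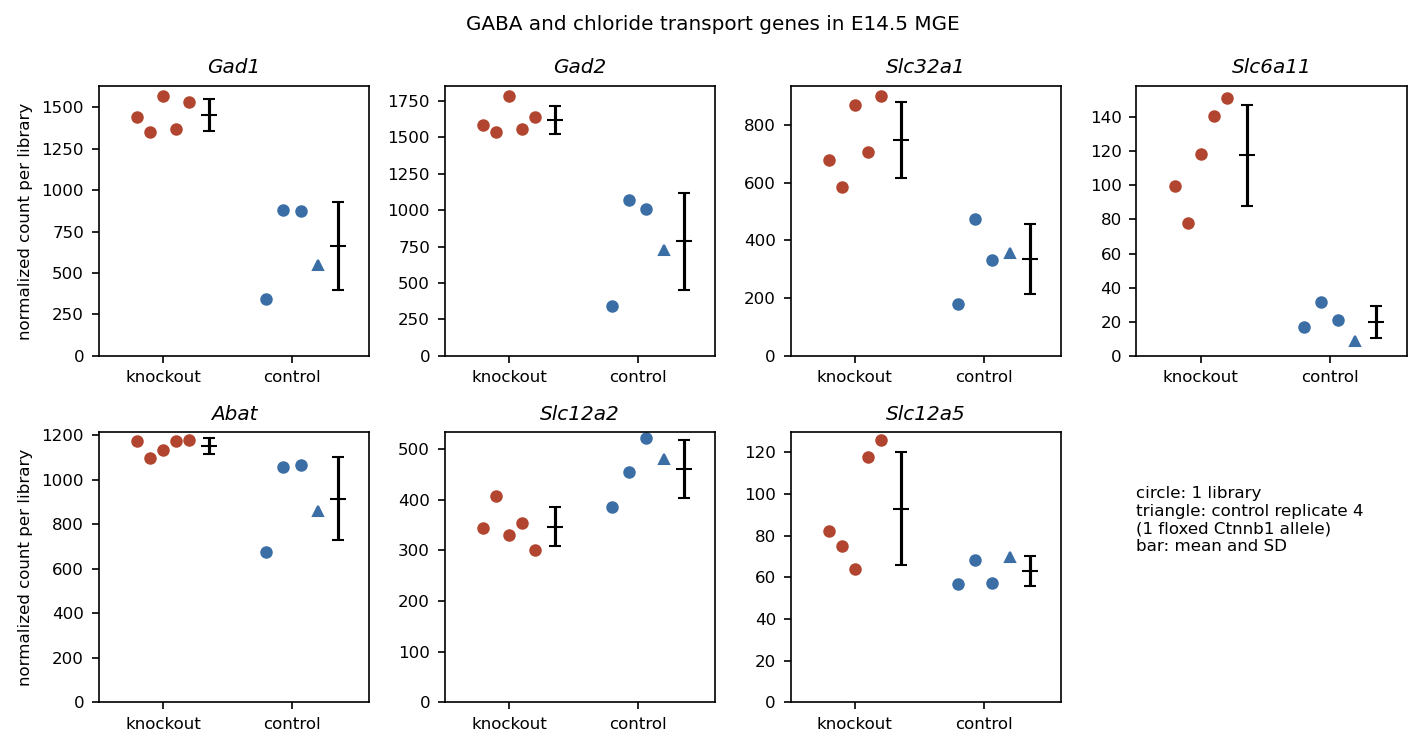
Normalized counts of the 7 genes in each library (points, on linear axes that start at 0), with the mean and SD of the 5 knockout libraries on the left and the 4 control libraries on the right. The knockout points lie above every control point for Gad1, Gad2, Slc32a1, Slc6a11 and Abat, and the groups overlap for Slc12a2 and Slc12a5.

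The synthesizing enzymes were both more abundant in the knockout. Gad1 had 1441, 1354, 1568, 1370 and 1533 normalized counts in knockout libraries, against 342, 882, 876 and 548 in control libraries. The knockout libraries were close to one another, and the controls spread widely, with replicate 1 lowest and replicate 4, the heterozygous one, next. The means were 1453 ± 95.5 in knockout and 662 ± 265 in control libraries, a log2 fold change of 1.23 (SE 0.257, limma adjusted p = 0.00578). The log2 fold change was 0.95 without control replicate 1 and 0.72 against controls 2 and 3 alone (limma adjusted p = 0.000738 and 0.000898).

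Gad2, the isoform tied to nerve terminals and synaptic vesicles, had 1585, 1537, 1778, 1556 and 1638 normalized counts in knockout libraries and 342, 1066, 1005 and 725 in control libraries. The control order was like that of Gad1, with replicates 1 and 4 low. The means were 1619 ± 97.2 in knockout and 784 ± 330 in control libraries, and the log2 fold change was 1.17 (SE 0.307, limma adjusted p = 0.0192). It was 0.81 without control replicate 1 and 0.64 against controls 2 and 3 alone (limma adjusted p = 0.000449 and 0.00127). Without a filter on low values, and without knockout replicate 5, the call was lost at limma adjusted p = 0.0618 and 0.0527.

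A processed pseudogene of Gad1, Gad1-ps (chr10:99444044-99445819), is 94.2% identical to a Gad1 transcript over 1788 aligned bases. It carried 9.59% to 12.6% of the Gad1 count in knockout libraries and 9.57% to 13.0% in control libraries. Its own log2 fold change was 1.23 (limma adjusted p = 0.000303), and the 2 rows summed also gave 1.23 (limma adjusted p = 0.00464). Reads shared between gene and copy cannot be separated here, and the Gad1 result was the same size either way.

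The vesicular transporter gene Slc32a1 had 680, 586, 870, 707 and 899 normalized counts in knockout libraries and 180, 473, 334 and 358 in control libraries. Knockout replicate 2 and control replicate 2 were the nearest values across the groups, which did not overlap. The means were 748 ± 133 in knockout and 336 ± 120 in control libraries, and the log2 fold change was 1.22 (SE 0.253, limma adjusted p = 0.00541). It was 0.94 without control replicate 1 and 0.89 against controls 2 and 3 alone (limma adjusted p = 0.00118 and 0.00977). An antisense gene, Gm14205, shares 697 exonic bases with Slc32a1 and had 0 to 1.99 normalized counts in any library. If the counting did not use strand, reads in those bases cannot be assigned to either gene.

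Among vesicular transporters of other transmitters, 0 of 4 tested passed in limma in either direction, 0 also had an unadjusted p under 0.05, and 4 more were under the minimum. Over all genes tested 34.5% passed, so with 4 genes no contrast with Slc32a1 is read. Slc18a2, the monoamine vesicle transporter, averaged 446 ± 121 in knockout and 581 ± 169 in control libraries (limma adjusted p = 0.280). Slc6a9, a plasma membrane glycine transporter grouped with them, averaged 53.7 ± 7.54 in knockout and 43.6 ± 8.61 in control libraries (limma adjusted p = 0.198).

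Uptake was followed through Slc6a11, encoding GAT3, a transporter best known from astrocytes in the adult brain. It had 99.9, 77.9, 118, 141 and 151 normalized counts in knockout libraries and 17.2, 31.8, 21.1 and 8.97 in control libraries. Every knockout library was above every control, and the heterozygous control was lowest. The mean was 118 ± 29.8 in knockout and 19.8 ± 9.48 in control libraries, a ratio of 5.95. The log2 fold change of 2.60 (SE 0.303, limma adjusted p = 0.000111) had the largest size among the 7 genes. It was 2.58 without control replicate 1, 2.29 without control replicate 4 and 2.10 against controls 2 and 3 alone (limma adjusted p = 0.000702, 0.000152 and 0.000813).

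Markers of astrocytes and oligodendrocyte precursors were set beside it. Of 7 tested, 3 rose and 0 fell (1 rose without control replicate 3), Gfap and S100b were under the minimum, and the list summed to 453 to 723 in knockout and 325 to 420 in control libraries. Over all genes tested, 17.2% passed as higher and 17.3% as lower. Aqp4, an astrocyte water channel, averaged 21.5 ± 4.98 in knockout and 5.01 ± 2.84 in control libraries. Slc1a2, a glial glutamate transporter, averaged 96.1 ± 25.3 in knockout and 56.8 ± 16.0 in control libraries, and Aldh1l1 212 ± 36.4 and 144 ± 43.1. The part of these cells in the Slc6a11 value was not tested.

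Values of related plasma membrane transporters follow. Slc6a6, the taurine transporter, averaged 596 ± 17.1 in knockout and 482 ± 74.0 in control libraries (log2 fold change 0.32, limma adjusted p = 0.0259). Its call was lost without control replicate 1, control replicate 4 or knockout replicate 4, and against controls 2 and 3 alone. Slc6a13, encoding GAT2, ranged from 13.4 to 138 in knockout and from 9.93 to 85.9 in control libraries and did not pass (limma adjusted p = 0.724).

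Abat, the enzyme of breakdown, changed least among the genes that rose. It had 1173, 1098, 1134, 1173 and 1179 normalized counts in knockout libraries, against 676, 1056, 1066 and 860 in control libraries. The knockout values were nearly level, and controls 2 and 3 lay only just below them. The means were 1151 ± 34.7 in knockout and 915 ± 185 in control libraries, and the log2 fold change was 0.36 (SE 0.119, limma adjusted p = 0.0311). Without control replicate 1 it was 0.22 (limma adjusted p = 0.0846), and against controls 2 and 3 alone it was 0.12 (limma adjusted p = 0.359), so the call ended in both cases. It also ended without control replicate 4, without knockout replicates 1, 3 or 4, with library quality weights and in a limma fit without trend or robust.

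Of 14 tested genes of GABA and glutamate metabolism outside the set, 0 rose and 4 fell in limma, with a median log2 fold change of -0.03, and 2 were higher at an unadjusted p under 0.05. Over all genes tested, 17.2% rose and 17.3% fell. The count of 0 became 2 without control replicate 2, and 1 without control replicate 3, without the filter on low values or with the replicate number as a block. Aldh5a1, the succinic semialdehyde dehydrogenase that acts after Abat, averaged 195 ± 14.1 in knockout and 253 ± 10.2 in control libraries (log2 fold change -0.38, limma adjusted p = 0.00760). Aldh9a1 and Odc1, an aldehyde dehydrogenase and the ornithine decarboxylase of the route from putrescine, changed by -0.73 and -0.54 on the log2 scale (limma adjusted p = 0.00106 and 0.00186). Got2, a mitochondrial aspartate aminotransferase, changed by -0.27 (limma adjusted p = 0.0275).

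The chloride importer gene Slc12a2, on chromosome 18, was the 1 gene of the set that fell. It had 343, 408, 330, 353 and 301 normalized counts in knockout libraries and 385, 454, 522 and 479 in control libraries. The groups overlapped, since knockout replicate 2 lay above control replicate 1. The means were 347 ± 39.1 in knockout and 460 ± 57.2 in control libraries, and the log2 fold change was -0.40 (SE 0.110, limma adjusted p = 0.0112). It was -0.49 without control replicate 1 and -0.49 against controls 2 and 3 alone (limma adjusted p = 0.00490 and 0.0182). Progenitor genes had a median of -0.82 on the same scale in these libraries, and their part in the Slc12a2 value was not tested.

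The extruder gene Slc12a5 was low in every library. It had 82.1, 75.0, 64.2, 118 and 126 normalized counts in knockout libraries and 56.6, 68.5, 57.3 and 69.8 in control libraries. Knockout replicates 4 and 5 stood above all others, while replicate 3 lay among the controls. The means were 93.0 ± 27.2 in knockout and 63.0 ± 7.07 in control libraries. The log2 fold change of 0.51 (SE 0.196, 95% interval 0.0945 to 0.929) did not pass after correction (limma adjusted p = 0.0550). It passed without a filter on low values and without knockout replicate 2 or 3 (limma adjusted p = 0.0378, 0.0405 and 0.0239).

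**Figure D2:**
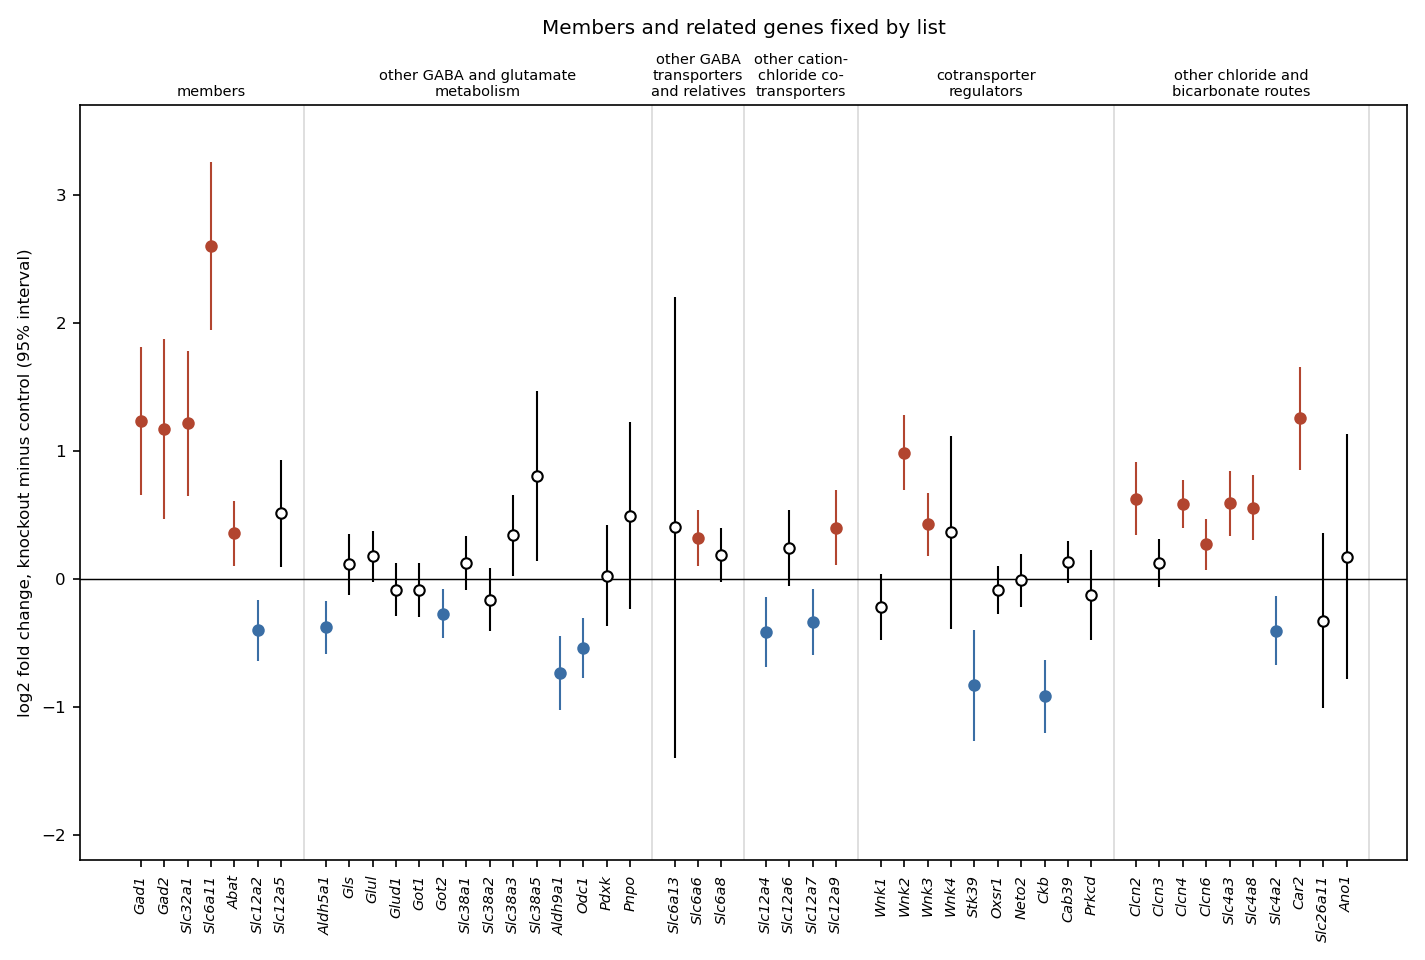
Log2 fold changes (vertical axis, knockout minus control) with 95% intervals for the 7 genes and named genes of 5 related lists, filled red where higher in knockout and blue where lower at limma adjusted p under 0.05, open where not passed. Slc6a11 at 2.60 is highest, and Gad1, Gad2 and Slc32a1 lie close together between 1.17 and 1.23.

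Of 4 related cation-chloride cotransporters tested, 1 rose and 2 fell, where 17.2% of all genes tested rose and 17.3% fell. With 4 genes no direction is read for the group. Slc12a9 averaged 125 ± 14.0 in knockout and 94.6 ± 13.6 in control libraries (log2 fold change 0.40, limma adjusted p = 0.0355). Slc12a4 and Slc12a7, which encode the potassium-chloride extruders KCC1 and KCC4, changed by -0.41 and -0.33 (limma adjusted p = 0.0220 and 0.0436). With 1 library left out, 0 to 1 passed as higher and 0 to 2 as lower, and 0 did so against controls 2 and 3 alone.

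Kinases and partners that set the activity of NKCC1 and KCC2 gave 2 higher and 2 lower of 10 tested. These counts are close to the shares over all genes tested, 17.2% higher and 17.3% lower. Wnk2 and Wnk3, of the chloride-sensing WNK kinases, averaged 1191 ± 249 and 318 ± 32.5 in knockout and 594 ± 69.3 and 237 ± 32.8 in control libraries. Their log2 fold changes were 0.99 (SE 0.137, limma adjusted p = 0.000223) and 0.43 (SE 0.116, limma adjusted p = 0.0110). Stk39, encoding the kinase SPAK that WNKs activate, averaged 134 ± 21.0 in knockout and 249 ± 94.8 in control libraries (log2 fold change -0.83, SE 0.201, limma adjusted p = 0.00698). Ckb, brain creatine kinase, a known partner of KCC2, averaged 3681 ± 677 in knockout and 6919 ± 994 in control libraries (log2 fold change -0.92, SE 0.133, limma adjusted p = 0.000286). Transcript levels say nothing of the phosphorylation by which these kinases act.

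Other routes for chloride and bicarbonate gave 6 higher and 1 lower of 10 tested, with a median of 0.41. Car2, a carbonic anhydrase, averaged 136 ± 37.3 in knockout and 54.8 ± 4.46 in control libraries (log2 fold change 1.25, SE 0.190, limma adjusted p = 0.000320). The chloride channel and exchanger genes Clcn2 and Clcn4 changed by 0.63 and 0.58, and the anion exchanger gene Slc4a3 by 0.59 (limma adjusted p = 0.00264, 0.000343 and 0.00182). The 1 that fell was the anion exchanger gene Slc4a2, at -0.41, and 0 passed as lower without control replicate 1 or 4 or knockout replicate 1 or 3.

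Levels between genes were set side by side only after division by exon length, taken over all annotated exons of a gene together. For Gad1 this length is 7639 bases, while the Gad1 transcript aligned to the pseudogene has 3355. The order of the genes below can therefore depend on the length chosen. On normalized counts per kb of exon, Gad2 (275 ± 16.5 in knockout and 133 ± 56.2 in control libraries) and Slc32a1 (267 ± 47.4 and 120 ± 43.1) were at the top of the set and overlapped. Gad1 (190 ± 12.5 in knockout and 86.7 ± 34.6 in control libraries) and Abat (149 ± 4.48 and 118 ± 23.9) came next. In the knockout every library had Gad1 above Abat on this scale, while in the controls their ranges overlapped. Slc12a2 stood at 31.8 ± 3.58 in knockout and 42.1 ± 5.24 in control libraries, and Slc12a5 at 12.5 ± 3.66 and 8.47 ± 0.949. Slc6a11, at 23.3 ± 5.90 per kb in knockout and 3.91 ± 1.88 in control libraries, was above Slc12a5 on average in the knockout, with overlapping ranges, and was lowest in the controls, where the ranges did not overlap.

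Ratios within a library do not depend on its size factor. They were taken on log2(normalized count + 1) and compared with exact two-sided permutation tests over samples, adjusted over the 4 ratios computed. The smallest p this design allows is 0.00794. The ratios are not corrected for length, so only their differences between groups are read. Each such difference equals the log2 fold change of 1 gene minus that of the other. It therefore restates the single-gene values from the same libraries and is not separate evidence.

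The ratio of Slc12a5 to Slc12a2, extruder to importer, was 0.241, 0.186, 0.197, 0.335 and 0.420 in knockout libraries and 0.149, 0.153, 0.112 and 0.147 in control libraries. All 5 knockout libraries were above all 4 controls. On their own, Slc12a2 changed by -0.40 on the log2 scale and passed, and Slc12a5 changed by 0.51 and did not pass. The log2 ratio averaged -1.93 ± 0.50 in knockout and -2.85 ± 0.21 in control libraries, a difference of 0.92 (95% interval 0.27 to 1.56, exact p = 0.0238, adjusted p = 0.0476). The importer remained the more counted of the 2 transcripts in each library. Leaving out 1 library gave differences of 0.75 to 1.04, and the adjusted p of the exact test stayed below 0.05 only where control replicate 1 was the one left out (0.0476; 0.0571 to 0.107 otherwise).

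Abat relative to Gad1 stood at 0.814, 0.811, 0.724, 0.856 and 0.769 in knockout libraries, against 1.98, 1.20, 1.22 and 1.57 in control libraries. The groups did not overlap, and the difference in log2 ratio was -0.88 (95% interval -1.25 to -0.50, exact p = 0.00794, adjusted p = 0.0317). It was -0.73 without control replicate 1 (exact p = 0.0179, adjusted p = 0.0357) and -0.60 against controls 2 and 3 alone, where the adjusted p of the exact test was 0.127. Without any other single library it was -0.97 to -0.84, with an adjusted p of the exact test of 0.0571 to 0.0714.

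Gad2 relative to Gad1 gave 1.07 to 1.14 in knockout libraries, and 1.21, 1.15 and 1.32 in control replicates 2, 3 and 4, while the counts of both genes were equal in control replicate 1. The log2 difference was -0.06 (95% interval -0.24 to 0.12, exact p = 0.452, adjusted p = 0.603). Without control replicate 1, whose ratio was the lowest, it was -0.14 and passed (adjusted p of the exact test 0.0357). For Slc32a1 relative to Gad1, the range was 0.433 to 0.586 in knockout and 0.381 to 0.653 in control libraries. That log2 difference was -0.02 (95% interval -0.41 to 0.38, exact p = 0.929), an interval that leaves room for shifts of either sign.

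**Figure D3:**
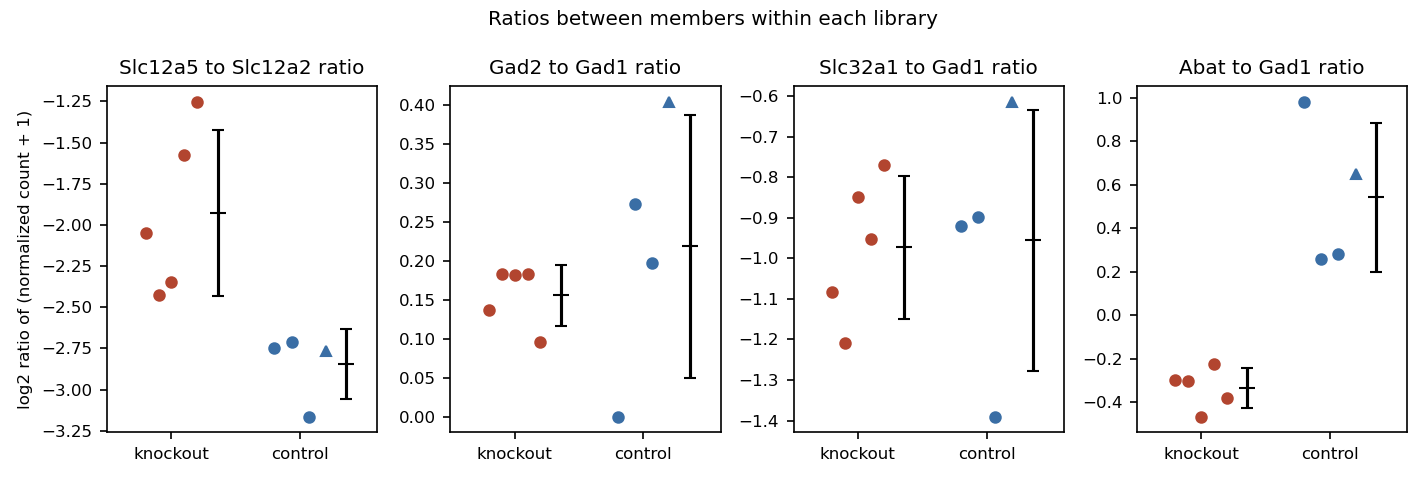
Log2 ratios of (normalized count + 1) between pairs of the genes in each library (points; triangle, the heterozygous control), with mean and SD, knockout on the left and control on the right; each panel has its own axis range. The groups are apart for Slc12a5 to Slc12a2 and for Abat to Gad1 and overlap for the other pairs.

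Because neuronal genes rose in general, each gene was also set against the mean log2 value of the neuronal lists in its own library. Differences were compared with exact two-sided permutation tests and adjusted over the 7 genes for each list. Slc6a11 rose beyond the mean of each list, but not beyond every gene in them. Sst (4.89) and Nxph1 (2.97) of the interneuron list had larger log2 fold changes than its 2.60, and the other tested genes of both lists had smaller ones. Relative to the pan-neuronal genes it was higher in knockout by 1.63 (95% interval 0.85 to 2.42, exact test adjusted p = 0.0278), and relative to the interneuron genes by 1.19 (95% interval 0.61 to 1.78, exact test adjusted p = 0.0139). Its values relative to the interneuron genes were -3.17 to -2.65 in knockout and -4.84 to -3.73 in control libraries. With fewer libraries the exact test has a higher smallest p, 0.0179 with 3 controls and 0.0286 with 4 knockouts. The difference from the pan-neuronal genes kept an adjusted p below 0.05 without control replicate 1 (0.0417) and not without any other single library (0.0625 to 0.100). The difference from the interneuron genes missed it without any 1 knockout library, where its adjusted p was equal to the threshold.

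Gad1, Gad2 and Slc32a1 did not differ detectably from either list. Relative to the pan-neuronal genes their differences were 0.27 (95% interval -0.54 to 1.07), 0.20 (-0.72 to 1.12) and 0.25 (-0.47 to 0.96), with exact test adjusted p = 0.750, 0.786 and 0.750. These 3 signs turned without control replicate 1, at -0.07, -0.21 and -0.08. Relative to the interneuron genes the differences were -0.17, -0.24 and -0.19 (exact test adjusted p = 0.381 for each). Without control replicate 1 they were -0.36, -0.50 and -0.37, and all 3 then passed (exact test adjusted p = 0.0357, 0.0250 and 0.0250).

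The mean of each list was higher in every knockout library than in every control. A gene that fell, or rose less than a list, therefore comes out lower relative to it. On their own the log2 fold changes were 0.36 for Abat, -0.40 for Slc12a2 and 0.51 for Slc12a5, which did not pass. The differences that follow include the rise of the lists, which were chosen with earlier results of these data known. Slc12a2 fell, and Abat and Slc12a5 rose less than the mean of either list. The negative sign was therefore given in advance for each of these genes. Abat was lower relative to the interneuron genes, by -1.05 (95% interval -1.33 to -0.78, exact test adjusted p = 0.0139), and relative to the pan-neuronal genes its difference of -0.61 did not pass (exact test adjusted p = 0.0833). Slc12a2 was lower relative to both, by -1.37 against the pan-neuronal and -1.81 against the interneuron genes (exact test adjusted p = 0.0278 and 0.0139). Slc12a5 was lower relative to the interneuron genes by -0.90 (95% interval -1.48 to -0.31, exact test adjusted p = 0.0139). Against the pan-neuronal genes it differed by -0.45 and did not pass (exact test adjusted p = 0.0833). As for Slc6a11, these calls were lost without any 1 knockout library, that of Slc12a2 against the pan-neuronal genes also without control replicate 2, 3 or 4 (-1.38 to -1.27), and that of Slc12a5 against the interneuron genes also without control replicate 4 (-0.78).

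**Figure D4:**
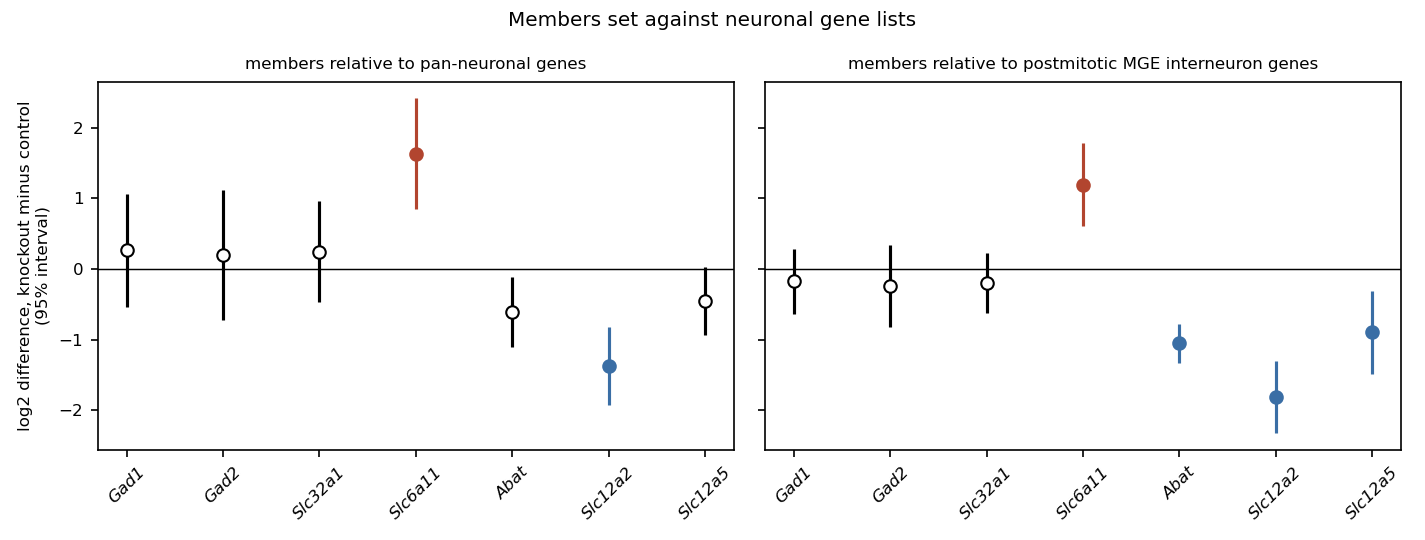
Difference between knockout and control (log2, mean and 95% interval) of each gene after the mean log2 value of the pan-neuronal list (left) or the postmitotic MGE interneuron list (right) was subtracted in each library; filled points passed the exact test at adjusted p under 0.05. Slc6a11 lies above 0 in both panels and Slc12a2 below 0 in both, while the intervals of Gad1, Gad2 and Slc32a1 span 0.

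Likeness of profiles was measured as the root-mean-square distance between log2 values over the 9 libraries, each gene centred on its control mean. Pseudogenes, Gad1-ps among them, and genes with predicted or clone names were left out of the search. Among the other genes tested, Gad1 and Gad2 were nearest to each other, at 0.111 log2 units. Gad1 was next nearest to Sh3rf1 (0.162) and Dlx1as (0.166), and Gad2 to Mmp9 (0.192) and Slc32a1 (0.217). The profiles most like Slc32a1 were Zfp697, Scrt1 and Bend4 (0.155 to 0.167), and those most like Slc6a11 were Gpr21, Maf and Iqsec3 (0.177 to 0.194). For Abat the nearest were Baz2a, Plcg1 and Slc6a6 (0.0581 to 0.0690), and for Slc12a2 they were Tgfbr1, Tfdp2 and Fubp3 (0.0614 to 0.0678). These distances describe the 9 libraries and share their depth and genotype split.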

How the data were processed

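Per the labels' protocols, NEBNext Ultra libraries were prepared from 500 ng total RNA. The authors deposited 1 signal value per gene and library, which the values show to be read counts divided by a size factor of 0.989 to 1.05. The submitters' processing notes name HTSeq 0.9.1, TopHat2 2.1.1, DESeq2 and R 3.4.0, and the build mm10. The role of each tool, the annotation and the strand setting were not stated in those notes. The values are not raw counts, so no count model was fitted.

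Genes averaging at least 10 (13780 of 48526) were tested two-sided with limma 3.58.1 in R 4.3.3, with trend and robust (statmod 1.5.0), on log2(value + 1), a scale that understates the change of low genes. Ratios and values relative to a list were compared with exact permutation tests. The limma fit was tested on simulated counts, and the exact tests on small sets of values with known p-values. These runs check the procedures and not the calls made here. The libraries of a group differed beyond sampling noise (smallest chi-square per degree of freedom 3.58). Each counted as 1 replicate, though that spread cannot show that the libraries come from separate embryos. The genes and lists were chosen with earlier results of these data known. Named genes were the 7, Ctnnb1, up to 4 passed genes with the smallest p per list (up to 2 where none passed) and the 3 nearest profiles of each passed gene. Nxph1, Sst and Nes are under that rule, and Gad1-ps, Gm14205, Slc6a13, Slc4a2, Gfap and S100b were named after their values were seen. Some genes that the lists took are not reported here. Alternatives were pseudocounts of 0.5 and 8, other filters, scalings and models, and left-out libraries. The sum of Gad1 and Gad1-ps was chosen after seeing the data.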

Additional observations from a re-analysis of the deposited data

Results flagged for a closer look

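In 9 of 158 groups of 4 or 5 values, 1 library lay far from the others of its group, and chance gives about 1 in 20 such groups. The groups did not cover every listed gene, so this is not a rate over the lists. In the set itself, the Slc12a5 to Slc12a2 log2 ratio was -3.16 in control replicate 3 and lay between -2.76 and -2.71 in the remaining controls. Among related genes, Slc6a6 had 626 normalized counts in knockout replicate 4 and 583 to 591 in the other knockouts, Slc12a9 had 149 in knockout replicate 5 and 114 to 123 in the others, and Aldh9a1 had 205 in control replicate 1, the remaining controls 161 to 166.

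Markers of neighbouring tissue were apart in control replicates 1 and 4 and knockout replicate 4. Reln, made by Cajal-Retzius cells of the cortex, had 501 normalized counts in control replicate 1, where the remaining controls had 42.7 to 68.8. Clic6, a choroid plexus gene, had 83.2 in knockout replicate 4 against 2.97 to 25.2 in the other knockouts, and 62.7 in control replicate 1 against 2.01 to 3.99 in the other controls. Otx2, a transcription factor of the choroid plexus, had 410 in knockout replicate 4 against 83.1 to 106 in the other knockouts, and 285 in control replicate 4 against 143 to 151 in the other controls.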

How the results depend on the processing

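Gad1, Slc32a1, Slc6a11 and Slc12a2 kept their direction and their call under every alternative run. Against controls 2 and 3 alone, 1387 genes passed as higher and 1112 as lower, against 2369 and 2380 with all libraries. Replicate numbers did not pair the libraries (correlations of -0.117, -0.0916, 0.137 and -0.0406), and with the replicate number as a block 3 of the 7 genes passed as higher; Gad2 (1.17) and Abat (0.35) did not pass (limma adjusted p = 0.0644 and 0.0570). Gad2 (1.17) also missed the threshold without a filter on low values, and ranged from 0.81 to 1.36 with 1 library left out. Abat missed it at 0.36 without trend or robust, at 0.25 with library quality weights and at 0.12 against controls 2 and 3 alone, and ranged from 0.22 to 0.44 with 1 library left out. Slc12a5 passed at 0.51 without the filter and ranged from 0.39 to 0.63 with 1 library left out.

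For the ratios, exact tests on fewer libraries have little room: the smallest p is 0.0476 with 2 controls, 0.0179 with 3, 0.0286 with 4 knockouts and 0.125 within 4 numbered pairs. Against controls 2 and 3 alone, the differences that no longer passed after adjustment were 1.01 for Slc12a5 to Slc12a2, -0.60 for Abat to Gad1, 1.08 for Slc6a11 and -1.51 for Slc12a2 relative to pan-neuronal genes, and 0.94 for Slc6a11, -1.04 for Abat, -1.65 for Slc12a2 and -0.64 for Slc12a5 relative to interneuron genes. In the same order, the paired differences under the replicate block were 0.75, -0.87, 1.62, -1.23, 1.12, -1.03, -1.73 and -0.99. With controls 2 and 3 alone the sign turned for Slc32a1 to Gad1 (0.17) and for Gad1 (-0.29), Gad2 (-0.37) and Slc32a1 (-0.12) relative to pan-neuronal genes. The causes of these changes were not tested beyond the smaller number of libraries.

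With 1 library left out, the ranges were 0.75 to 1.04 for Slc12a5 to Slc12a2, -0.14 to -0.00081 for Gad2 to Gad1, -0.16 to 0.097 for Slc32a1 to Gad1 and -0.97 to -0.73 for Abat to Gad1. Relative to pan-neuronal genes they were -0.074 to 0.47 for Gad1, -0.21 to 0.40 for Gad2, -0.079 to 0.43 for Slc32a1, 1.35 to 1.89 for Slc6a11, -0.80 to -0.49 for Abat and -1.51 to -1.23 for Slc12a2. Relative to interneuron genes they were -0.36 to -0.037 for Gad1, -0.50 to -0.11 for Gad2, -0.37 to -0.065 for Slc32a1, 0.95 to 1.32 for Slc6a11, -1.11 to -0.999 for Abat, -1.95 to -1.72 for Slc12a2 and -0.99 to -0.73 for Slc12a5. Slc12a5 and Slc6a11 had the fewest reads of the 7 genes, so their values carry the largest counting error.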
